A study of Homo sapiens with 4 samples.

Results

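The genes described here are 10 histone deacetylases and sirtuins, enzymes that remove acetyl groups from histones and other proteins, in IMR90 human lung fibroblasts depleted of HMGB1. They were chosen by name (HDAC1, HDAC2 and HDAC3 of class I, HDAC4, HDAC5, HDAC7 and HDAC9 of class IIa, and the sirtuins SIRT1, SIRT2 and SIRT6) and make up 10 of the 63677 genes counted. The families hold 18 genes in all, and the other 8 are given for comparison. RNA-seq was performed on 4 libraries, 2 from cells transfected with a non-targeting control siRNA (NTC) and 2 from cells transfected with siRNA against HMGB1, which encodes an abundant nuclear architectural protein. Both groups were IMR90 at passage 5, carried no other modification named in the labels, and were collected after 72 h. Different siRNAs against HMGB1 were in use for IMR90, and the labels do not tell which went into a library. The cells of replicate 1 were the isolate I90-10 and those of replicate 2 the isolate I90-79, in control and knockdown alike, so each isolate was measured once with and once without the knockdown. The knockdown comparison asks how the loss of HMGB1 goes along with the levels of chromatin enzymes, since chromatin organization is the subject of the study. The total of counted reads was 29869338 and 35317010 in the control and 29861687 and 31086475 in the knockdown libraries (replicates 1 and 2 here and below). Levels are CPM, read counts relative to the total of a library, scaled by the TMM method, and the 4 values of a gene are given in the order control 1, control 2, knockdown 1, knockdown 2.

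Class I deacetylases are the catalytic subunits of corepressor complexes: HDAC1 and HDAC2 work in the NuRD, SIN3, CoREST and MiDAC complexes, and HDAC3 in the NCoR/SMRT complex. Class IIa enzymes have little deacetylase activity of their own, bind MEF2 transcription factors, and move between nucleus and cytoplasm, where 14-3-3 proteins hold them after phosphorylation by CaMK, PKD and SIK kinases. Sirtuins need NAD as a cosubstrate. SIRT1 and SIRT6 are nuclear and SIRT2 is mainly cytoplasmic, and both SIRT1 and SIRT6 are known for their links to ageing and senescence of fibroblasts.

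HMGB1 itself, on chr13:31032884-31191734 of hg19, gave 181, 237, 16.0 and 18.9 CPM. The knockdown libraries were low in both isolates, without overlap with the controls, with means of 209 ± 39.5 and 17.4 ± 2.05 CPM (SD, n = 2), and HMGB1 fell (log2FC −3.59, SE 0.19, edgeR adjusted p = 0.0075). Here log2FC is the fitted log2 ratio of knockdown over control and SE its standard error. The cells had the markers of their label. The 10 fibroblast markers summed to 34230, 18050, 32670 and 20590 CPM, led by the collagen gene COL1A1 with a mean of 8655 CPM (named after its value was seen). The sums were higher in the I90-10 libraries of both groups, and 5 of these 10 markers were called between the isolates, beside 1.67% of all genes. By the test of the knockdown 0 of the 10 were called without the isolate term (0.201% of all genes), and 1 higher (LUM) and 2 lower (PDGFRB and THY1, the latter named after its value was seen) with the isolate as a replicate block (6.68% and 7.84% of all genes). LUM had a log2FC of 0.79 (adjusted p = 0.0987) and PDGFRB of −0.73 (adjusted p = 0.277) without that term. As libraries were left out, LUM ranged from 0.50 (without control replicate 2) to 1.16 (without control replicate 1) and PDGFRB from −1.15 to −0.14, in the same order of the left-out libraries. All 6 blood markers stayed under 1 CPM in each library, with LYZ and CD3E at 0. The 6 epithelial markers summed to 24.6, 15.1, 16.1 and 10.3 CPM, led by KRT8 with a mean of 13.3 CPM and with KRT5 at 0. KRT8 had a log2FC of −0.60 (adjusted p = 0.159) and KRT19 of −0.65 (adjusted p = 0.747), and 0 epithelial markers were called in either fit, where 0.201% of all genes were called without the block and 6.68% higher and 7.84% lower with it. As libraries were left out, KRT19 ranged from −2.59 (without knockdown replicate 1) to 1.32 (without control replicate 1) and KRT8 from −0.81 to −0.39. Of the 6 endothelial markers 5 were found under their symbol and 3 were tested. They summed to 150, 149, 136 and 136 CPM, nearly all from TEK, and 3 stayed under 1 CPM in each library. CDH5 was at 0, while TEK, the most abundant, had a mean of 140 CPM and a log2FC of −0.17 (adjusted p = 0.340). VWF was low, with 1.36, 0.923, 4.16 and 2.59 CPM. It was the 1 of the 3 tested endothelial markers called with the block (6.68% of all genes called higher, log2FC 1.55, adjusted p = 0.0036, and 0.0681 without the block).

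In control cells HDAC1, HDAC2 and HDAC3 had the highest levels of the families when counts were divided by the exonic length of each gene in kilobases. HDAC1 was first with 30.2 ± 1.89 CPM per kilobase (SD, n = 2, as for the levels that follow), at the 90.7th percentile of the 15398 genes tested (percentiles use the mean over the 4 libraries). HDAC3 followed with 13.8 ± 0.632 and HDAC2 with 12.5 ± 0.116 CPM per kilobase. HDAC7 had 10.0 ± 0.827, SIRT2 8.76 ± 1.83, SIRT6 7.47 ± 0.555 and SIRT1 6.99 ± 0.376 CPM per kilobase, and each of these neighbours overlapped the next in its control values. HDAC5 had 4.57 ± 1.72 CPM per kilobase, below SIRT1 in both control libraries and overlapping with SIRT7. HDAC4 came 15th of 18 with 1.34 ± 0.346 CPM per kilobase and overlapped both of its neighbours, SIRT5 and SIRT4. HDAC9 came 17th with 0.435 ± 0.232 CPM per kilobase, at the 12.9th percentile of all genes tested, and overlapped HDAC10. In the knockdown libraries the first 3 kept their places, HDAC4 was 11th and HDAC5 12th. The order depends on the length used: with that of the canonical transcript, chosen as an alternative after the data had been seen, SIRT2 came before HDAC7 and HDAC2. The merged exons of SIRT2 span 6204 bases and its canonical transcript 1.86 kilobases, and those of HDAC2 15461 bases and 9.74 kilobases.

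**Figure D1:**
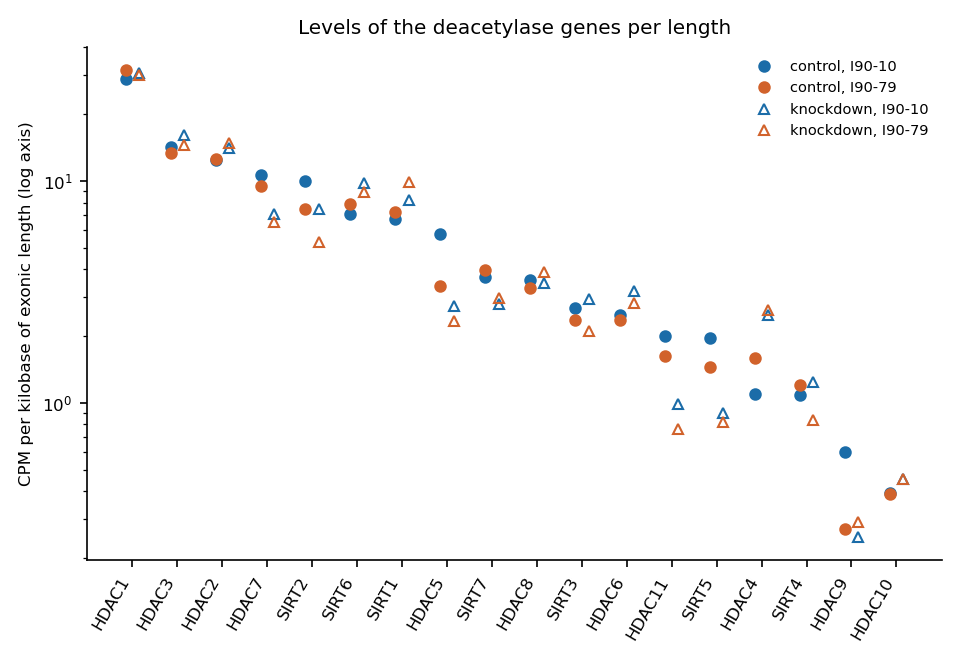
Levels of the 18 deacetylase genes (CPM per kilobase of exonic length, log axis), ordered by their control mean, with filled circles for control and open triangles for knockdown libraries, coloured by isolate. HDAC1 lies near 30 in all 4 libraries, and the triangles of HDAC4 lie above its circles while those of HDAC7, HDAC11 and SIRT5 lie below.

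Upon HMGB1 knockdown the log2FC of HDAC1, HDAC2 and HDAC3 lay between 0.01 and 0.21, that of the class IIa genes between −0.85 (HDAC5) and 0.93 (HDAC4), and that of the sirtuins between −0.46 (SIRT2) and 0.37 (SIRT1). Over the 10 members the log2FC was above 0 for 6 and below 0 for 4, with a median of 0.08, against −0.01 for all genes tested. By edgeR's quasi-likelihood test without a term for the isolate, 0 of the 10 members passed the thresholds (a log2FC beyond 0.6 in either direction and an adjusted p under 0.01), as against 0.201% of all genes tested. Unadjusted p was below 0.05 for 4 of them, HDAC4, HDAC5, HDAC7 and SIRT1, beside 28.3% of all genes tested. DESeq2 called 1, and RUVs followed by DESeq2 called 2, beside 11.1% and 13.8% of the genes to which these fits gave an adjusted p. When the isolate was a replicate block, HDAC4 rose and HDAC5 fell, 1 of 10 members in each direction beside 6.68% of all genes called higher and 7.84% called lower. The values of the groups did not overlap for 5 members that were higher in the knockdown and 3 that were lower, beside 29.8% and 30.2% of all genes. The groups of SIRT2, among the 3, were barely apart, with 46.32 CPM in control 2 and 46.26 CPM in knockdown 1. The p-values without the isolate term measure the spread between 2 libraries a group, each from 1 isolate. Those with the block leave out the difference between the isolates and rest on how unlike the knockdown log2 ratios of the isolates were. RUVs with 1 factor also takes out part of the spread within a group. An exact two-sided permutation test of 2 against 2 cannot give a p below 0.333. In bulk RNA, fewer cells of a kind and less RNA per cell cannot be told apart.

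**Figure D2:**
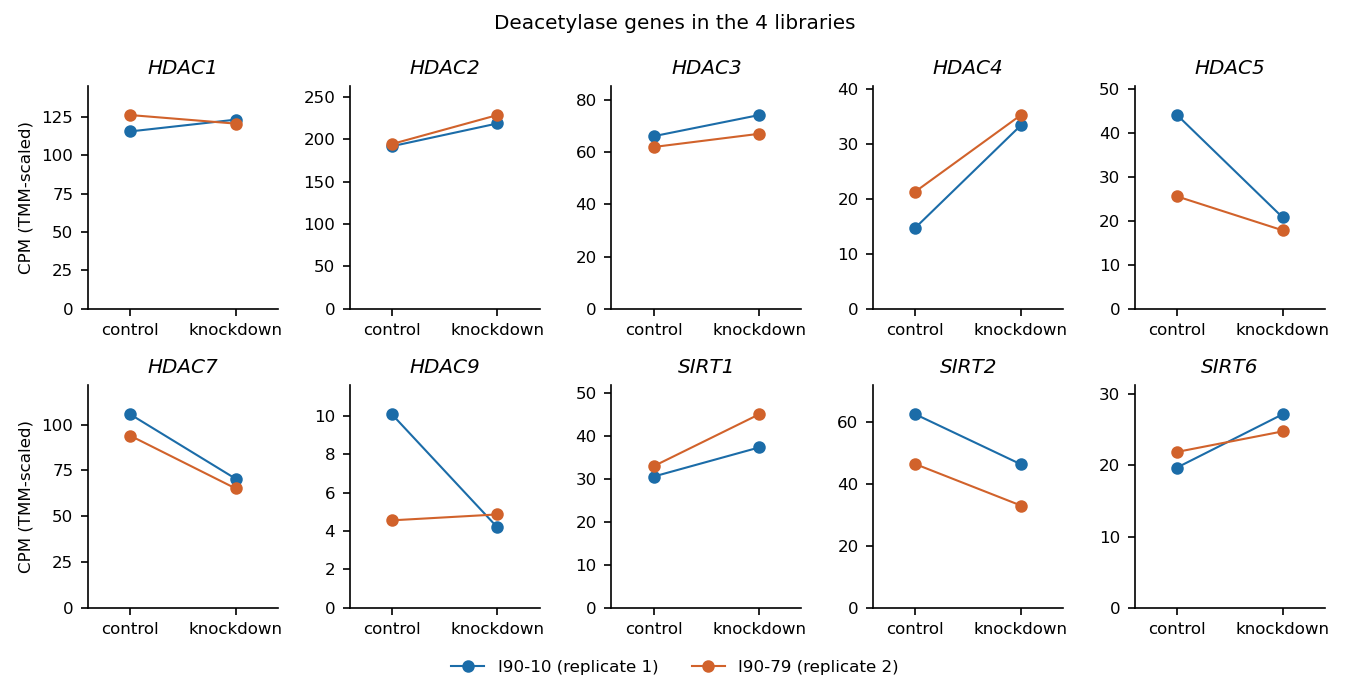
Level of each of the 10 members (CPM, TMM-scaled, axes from 0) in control and knockdown libraries, with a line joining the libraries of 1 isolate (blue I90-10, orange I90-79). Both lines go up for HDAC4, from 14.8 and 21.4 to 33.4 and 35.3 CPM, and both go down for HDAC5 and HDAC7, while the lines of HDAC1 and HDAC9 go in opposite directions.

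Among the class I genes, HDAC1 (chr1:32757687-32799236), the most abundant per length, had 116, 126, 123 and 121 CPM. Its groups overlapped and the log2FC was 0.01 (SE 0.11, adjusted p = 0.958). HDAC2 (chr6:114254192-114332472), its partner in the same complexes, had 192, 194, 218 and 228 CPM, with both knockdown libraries above both controls. The log2FC of 0.21 (SE 0.11) did not pass the test (adjusted p = 0.275, and 0.114 with the block). HDAC3 (chr5:141000443-141016437), the enzyme of NCoR/SMRT, had 66.1, 62.0, 74.3 and 67.1 CPM. Its groups were close but did not overlap, with a log2FC of 0.14 (SE 0.12, adjusted p = 0.474). For HDAC3, 9.20% of the exonic bases overlap a gene on the other strand, and since no source used here states whether counting used the strand, reads of the pair cannot be told apart. Summed per kilobase, HDAC1, HDAC2 and HDAC3 (without HDAC8, a further class I enzyme) had 55.6, 57.5, 60.9 and 59.4 CPM per kilobase, and HDAC1 gave between 50.5% and 54.9% of that sum in each library.

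The largest log2FC of a member was that of HDAC4 (chr2:239969864-240323348), the class IIa enzyme best known as a repressor of MEF2 targets. Its counts were 434, 787, 966 and 1103, or 14.8, 21.4, 33.4 and 35.3 CPM. Both knockdown libraries stood above both controls, and the lower control was that of I90-10. HDAC4 was 1.90-fold higher, with a log2FC of 0.93 (SE 0.20) that missed the threshold without the isolate term (adjusted p = 0.0546) and passed it with the block (0.95, SE 0.14, adjusted p = 0.0015). Within isolates the log2 ratio was 1.18 in I90-10 and 0.73 in I90-79. Leaving out control replicate 2 gave 1.22 (adjusted p = 0.0088), and leaving out control replicate 1 gave 0.69 (adjusted p = 0.079). Its exons overlap HDAC4-AS1 on the other strand over 0.751% of their length.

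The other class IIa genes had lower mean levels in the knockdown. HDAC5 (chr17:42154114-42201070), close to HDAC4 in sequence and function, had 44.1, 25.6, 20.8 and 17.8 CPM. The control of I90-10 stood far above the other 3 libraries, and the groups did not overlap. HDAC5 was 1.80-fold lower, with a log2FC of −0.85 (SE 0.28, adjusted p = 0.124) without and −0.81 (SE 0.15, adjusted p = 0.0047) with the block. Much of this rested on that library: without control replicate 1 the log2FC was −0.41 (adjusted p = 0.331), and without control replicate 2 it was −1.19 (adjusted p = 0.0083). HDAC7 (chr12:48176505-48226915), the most abundant of the class and known from the vascular endothelium, had 106, 93.9, 70.4 and 65.1 CPM. Both isolates went the same way by a similar amount (log2 ratios −0.58 and −0.53), and the groups were well apart. The log2FC of −0.56 (SE 0.12) had an adjusted p of 0.0526, and of 0.0033 with the block, where it stayed under the threshold on the fold change. The exons of HDAC7 overlap other genes, SLC48A1 among them, over 10.0% of their length, on the other strand. HDAC9 (chr7:18126572-19042039), a further MEF2 corepressor, was low, with 296, 168, 121 and 152 counts, or 10.1, 4.56, 4.19 and 4.87 CPM. The control of I90-10 was high and that of I90-79 lay between the knockdown values, so that the log2FC of −0.69 (SE 0.41, adjusted p = 0.323) became −0.01 without control replicate 1.

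The make-up of class IIa was described per library. Summed per kilobase the class had 18.1, 14.7, 12.6 and 11.8 CPM per kilobase, lower in both knockdown libraries than in both controls. HDAC4 made up 6.07% and 10.8% of that sum in the control and 19.8% and 22.2% in the knockdown libraries, and HDAC7 gave between 55.5% and 64.5% of it in each of them. The share of HDAC9 overlapped between the groups. The ratio of HDAC4 to HDAC5 per kilobase was 0.190, 0.473, 0.912 and 1.12, with a wide gap between the 2 controls. These shares depend on the lengths used, and their differences were not tested. Smooth muscle markers, most of which contractile fibroblasts also express, had a sum that was highest in the control of I90-10, as HDAC5 was. ACTG2 alone gave 627 of the 782 CPM there, so the order of the sum is mainly that of this gene. The 5 markers summed to 782, 316, 252 and 158 CPM, and none was at 0. The most abundant by its mean was ACTG2 (627, 204, 144 and 65.1 CPM, a log2FC of −1.99, adjusted p = 0.116). Leaving out libraries moved ACTG2 from −2.68 (without knockdown replicate 1) to −0.97 (without control replicate 1). DES had a log2FC of 0.51, SMTN of −0.11 and MYH11 of −0.94 (adjusted p = 0.713, 0.571 and 0.306), all named after their values were seen. CNN1 had 79.2, 29.5, 34.0 and 20.4 CPM, with overlap between the groups, and its log2FC lay between −1.54 and −0.12 as libraries were left out, the latter without control replicate 1. Without the isolate term 0 of the 5 markers were called (0.201% of all genes), 1 with an unadjusted p below 0.05 (28.3% of all genes). With the block 2 were called lower, ACTG2 and CNN1 (7.84% of all genes), and both were also called between the isolates (1.67% of all genes). Their part in the values of HDAC5 was not tested.

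**Figure D3:**
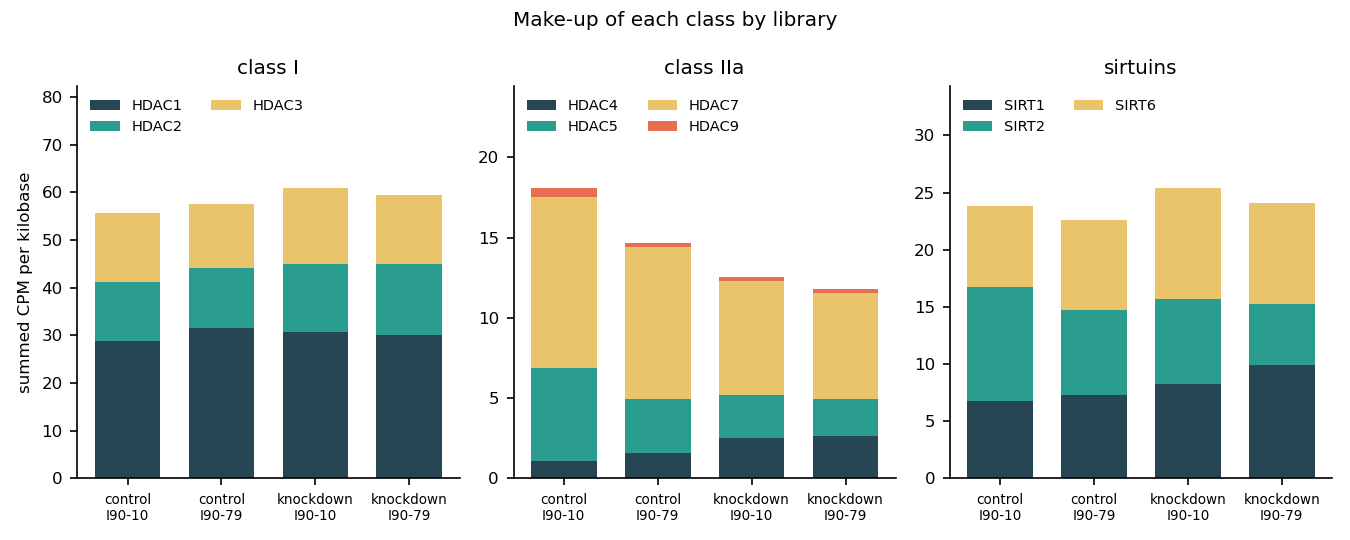
Stacked bars of the summed level of the members of each class (CPM per kilobase of exonic length, from 0) in the 4 libraries, with 1 colour per gene. The share of HDAC4 in class IIa goes from 6.07% and 10.8% in control to 19.8% and 22.2% in knockdown libraries, and that of SIRT2 among the sirtuins is lowest, at 22.04%, in the knockdown of I90-79.

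Of the sirtuins, SIRT1 (chr10:69644427-69678147), a nuclear deacetylase of histones and of p53, had 30.6, 33.03, 37.4 and 45.1 CPM. The groups did not overlap, and the highest value was the knockdown of I90-79. The log2FC was 0.37 (SE 0.14, adjusted p = 0.162, and 0.0291 with the block), below the threshold of size in either fit. SIRT6 (chr19:4174106-4182601), which acts on chromatin at telomeres and sites of DNA repair, had 19.7, 21.9, 27.2 and 24.8 CPM. It too was higher in both knockdown libraries, with a log2FC of 0.32 (SE 0.14, adjusted p = 0.203, and 0.0803 with the block). SIRT2 (chr19:39369197-39390502), a deacetylase of tubulin, had 62.4, 46.3, 46.3 and 32.98 CPM, so that the lower control and the higher knockdown were level and I90-10 exceeded I90-79 in each group. Its log2FC was −0.46 (SE 0.23, adjusted p = 0.254) without and −0.46 (SE 0.10, adjusted p = 0.0094) with the block, again short of the threshold of size. It was −0.23 when control replicate 1 or knockdown replicate 2 was left out, and −0.72 without knockdown replicate 1. The ratio of SIRT1 to SIRT2 per kilobase was 0.669, 0.972, 1.10 and 1.87, and the 3 sirtuins summed to 23.9, 22.6, 25.4 and 24.1 CPM per kilobase. Both depend on the lengths used: with those of the canonical transcripts SIRT1 had means of 7.75 and 10.1 CPM per kilobase in control and knockdown, below the 29.2 and 21.3 of SIRT2.

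The isolates were also compared at equal treatment. In the fit with both terms, 0 of the 10 members passed the thresholds between I90-79 and I90-10, as against 1.67% of all genes tested, DESeq2 also called 0 (3.46% of the genes with an adjusted p), and 2 members had an unadjusted p below 0.05, beside 22.2% of all genes tested. These were SIRT2, lower in I90-79 by a log2 difference of −0.46 (SE 0.10, adjusted p = 0.0340), and HDAC5, with −0.51 (SE 0.15, adjusted p = 0.0832). HDAC1, HDAC2 and SIRT6 had log2 differences between 0.01 and 0.05.

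**Figure D4:**
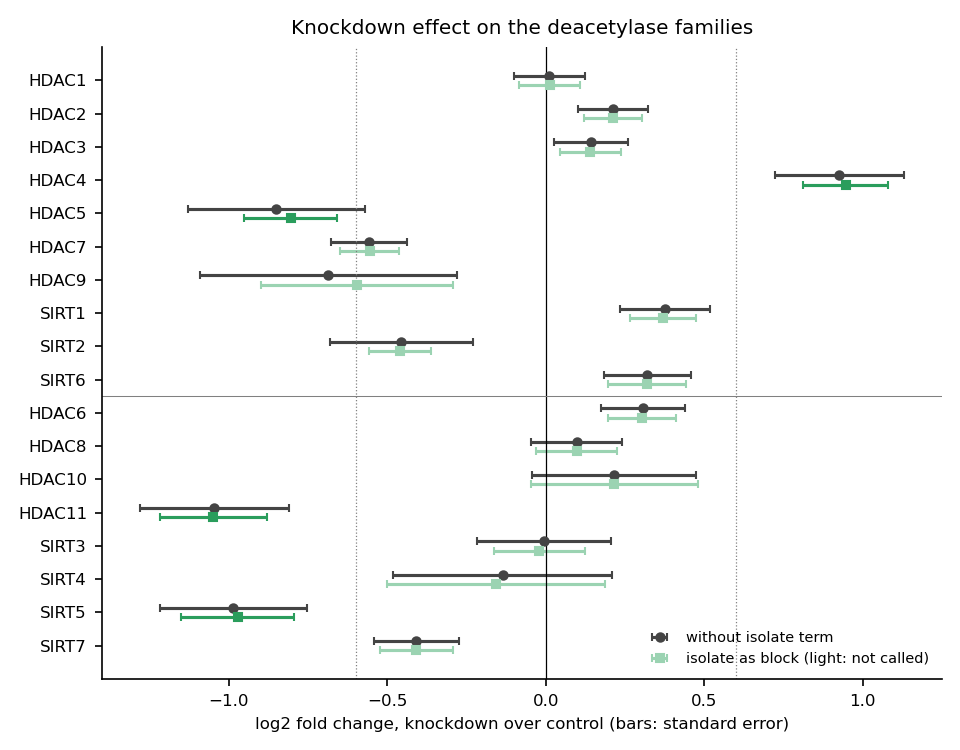
Log2-fold change of each family gene (knockdown over control, bars are the SE of the fit), with circles for the fit without and squares for the fit with the isolate as a block, where light squares mark genes that were not called, and dotted lines at the threshold of 0.6. The squares of HDAC4 (0.95), HDAC5 (−0.81), HDAC11 (−1.05) and SIRT5 (−0.97) are dark, and those of HDAC1 and SIRT3 lie at about 0.

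Of the 8 other family genes, 3 had a log2FC above and 5 below 0. Without the isolate term 0 of them were called, 3 with an unadjusted p below 0.05 (28.3% of all genes tested), and with the block 2 fell, HDAC11 and SIRT5 (7.84% of all genes called lower). HDAC11, the sole class IV enzyme, had 10.6, 8.55, 5.23 and 4.04 CPM. Both knockdown libraries were below both controls, with a log2FC of −1.05 (SE 0.24, adjusted p = 0.0574, and 0.0025 with the block). SIRT5, a mitochondrial enzyme that removes succinyl and malonyl groups, had 10.6, 7.82, 4.85 and 4.42 CPM, likewise without overlap, and a log2FC of −0.99 (SE 0.23, adjusted p = 0.0634, and 0.0046 with the block). SIRT7 of the nucleolus had −0.41 (adjusted p = 0.124), the tubulin deacetylase HDAC6 0.31 (adjusted p = 0.204), HDAC8 of class I 0.10 (adjusted p = 0.699), and the mitochondrial sirtuins SIRT3 and SIRT4 −0.0049 and −0.14 (adjusted p = 0.990 and 0.831). The value of HDAC10, 0.22 (adjusted p = 0.627), is uncertain, since 55.8% of its exonic bases overlap MAPK12 on the same strand.

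The partners of the enzymes were described by lists of complex subunits, kinases, acetyltransferases and NAD enzymes. The shares of all genes tested beside which their counts stand are 0.201% called without the block, 6.68% called higher and 7.84% called lower with it, and 28.3% with an unadjusted p below 0.05. All 8 subunits of NCoR/SMRT and MiDAC had a log2FC below 0, beside 7756 of all 15398 genes tested. Their median was −0.52, against −0.01 for all genes tested. Of these 8, 0 were called without and 2 with the block (TBL1XR1 and MIDEAS, the latter named after its value was seen), 6 had an unadjusted p below 0.05 (28.3% of all genes tested), and 7 were lower without overlap between the groups (30.2% of all genes tested). The value of GPS2, −0.09 and named after it was seen, is uncertain, since 52.5% of its exonic bases overlap other genes, most of it on the same strand. TBL1XR1, an exchange factor of the NCoR/SMRT complex, had 80.9, 67.0, 40.3 and 44.5 CPM. Its log2FC was −0.80 (SE 0.14, adjusted p = 0.0361, and 0.0020 with the block), and that of its relative TBL1X was −0.52 (SE 0.11, adjusted p = 0.0488). NCOR1, the scaffold that holds HDAC3 and also named after its value was seen, had −0.45 (adjusted p = 0.0933), while HDAC3 itself had 0.14. The 10 CoREST subunits also all had values below 0, with a median of −0.21, and 0 were called without the isolate term (2 with an unadjusted p below 0.05, beside 28.3% of all genes tested). Among them ZMYM3 had a log2FC of −0.47 (adjusted p = 0.164).

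The lists of the NuRD and SIN3 complexes had medians close to that of all genes. The 11 NuRD genes had a median log2FC of 0.01, with 0 called in either fit and 1, RBBP7, with an unadjusted p below 0.05 (log2FC 0.43, adjusted p = 0.103), followed by MBD3 with 0.30 (adjusted p = 0.205). The 13 SIN3 genes had a median of −0.01, with 0 called without and 1 with the block. SAP30, a SIN3 subunit that stabilises the complex, had 7.12, 7.03, 14.4 and 15.7 CPM, about the same in both isolates of a group. It was 2.13-fold higher (log2FC 1.09, SE 0.16, adjusted p = 0.0257, and 0.0011 with the block). ARID4A of the same complex had −0.71 (adjusted p = 0.0842).

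**Figure D5:**
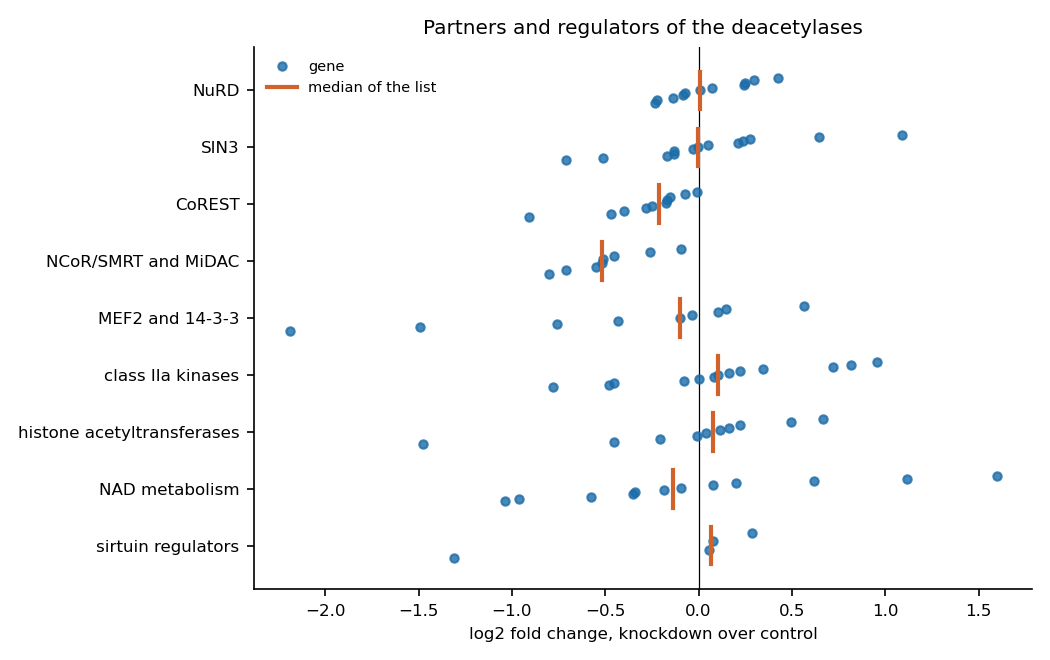
Log2-fold change (knockdown over control, fit without the isolate term) of each tested gene in the lists of partners and regulators, with a red bar at the median of a list and a line at 0. All 8 points of the NCoR/SMRT and MiDAC list lie below 0, with a median of −0.52, and the leftmost points of all lists are YWHAG at −2.19 and YWHAB at −1.49.

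Of the genes that bind class IIa enzymes, MEF2 factors and 14-3-3 proteins, 9 of 11 were tested, with 3 values above and 6 below 0 and a median of −0.10. YWHAG, the 14-3-3 gamma protein (chr7:75956116-75988348), was the 1 gene of all partner lists that was called without the isolate term. It had 477, 463, 98.7 and 107 CPM, high in both controls and low in both knockdowns, and was 4.57-fold lower (log2FC −2.19, SE 0.13, adjusted p = 0.0075). YWHAB, the beta protein, had 449, 408, 157 and 148 CPM and a log2FC of −1.49 (SE 0.13) that just missed the limit (adjusted p = 0.0104, and 5.2e-05 with the block). With the block YWHAH also fell, by 0.76 on the log2 scale, while YWHAZ, the most abundant of the list at a mean of 852 CPM, had 0.10 (adjusted p = 0.644), both genes named after their values were seen. The summed list had 3318, 3236, 2651 and 2527 CPM. Among the 13 kinases that phosphorylate class IIa enzymes the median was 0.10, with 0 called without the block and 2 higher and 1 lower with it, beside 6.68% and 7.84% of all genes. CAMK1D had 36.5, 36.9, 60.1 and 68.9 CPM and a log2FC of 0.81 (adjusted p = 0.0263, and 0.0009 with the block). SIK3 had 57.6, 68.5, 37.9 and 35.6 CPM and a log2FC of −0.78 (adjusted p = 0.0348, and 0.0018 with the block). Neither gene overlapped between the groups.

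The opposing enzymes, 10 histone acetyltransferases, had a median of 0.08 with 0 called without and 1 in each direction with the block. KAT2B (PCAF) was low and had 8.54, 6.65, 3.05 and 2.40 CPM, with a log2FC of −1.48 (SE 0.26, adjusted p = 0.0350, and 0.0009 with the block). Its close relative KAT2A (GCN5) had 27.7, 33.7, 48.4 and 49.3 CPM, with 0.67 (SE 0.14, adjusted p = 0.0501, and 0.0027 with the block). The groups did not overlap for either gene.

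The enzymes that make or use NAD, the cosubstrate of sirtuins, included genes that differed between the isolates. Of 15 genes 12 were tested, with a median of −0.14, 0 called without the block, 3 higher and 2 lower with it (6.68% and 7.84% of all genes), and 3 called between the isolates (1.67% of all genes). NAMPT, the rate-limiting enzyme of NAD salvage, had 195, 541, 776 and 1450 CPM. Each isolate was higher in its knockdown, and I90-79 was higher than I90-10 within each group (log2 difference 1.18, adjusted p = 0.0043). Its log2FC was 1.60 (SE 0.55, adjusted p = 0.135) without and 1.71 (SE 0.14, adjusted p = 0.0001) with the block, and between 1.04 and 2.51 when a library was left out. SARM1, an enzyme that breaks down NAD, had 6.37, 5.89, 14.99 and 11.6 CPM and a log2FC of 1.12 (SE 0.20, adjusted p = 0.0381, and 0.0014 with the block), and is uncertain, since 61.4% of its exonic bases overlap other genes, SLC46A1 and VTN among them, most of it on the other strand. Of the 4 sirtuin regulators, USP22, a ubiquitin protease that stabilises SIRT1, had 359, 334, 146 and 133 CPM. It was 2.48-fold lower in the knockdown (log2FC −1.31, SE 0.13), just short of a call without the block (adjusted p = 0.0119) and called with it (adjusted p = 7.4e-05). RPS19BP1 (AROS), an activator of SIRT1, had 0.29 (adjusted p = 0.231). The 12 proliferation genes had a median of −0.04, with 0 called without and 1 with the block, PCNA, which had 90.1, 121, 51.7 and 53.5 CPM and a log2FC of −1.01 (adjusted p = 0.0320, and 0.0006 with the block). MCM2 had −0.59 (adjusted p = 0.214), which ranged from −0.91 to −0.16 when 1 of the controls was left out (the latter without replicate 2).

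The 3′ UTRs of some of these genes hold the word GCAGTT, taken from an earlier search of these same data in which genes with the word were lower in the knockdown. The windows of 30 bases around it in hg19 are shown, 5′ to 3′ on the strand of the gene with the word in capitals, for the members that hold it and for YWHAG, the partner gene with the most negative log2FC.
HDAC2, chr6:114257743-114257772, minus strand: gagccttttattGCAGTTtgatgcctacta
HDAC9, chr7:19038307-19038336, plus strand: attttattgctcGCAGTTgttctgaatgag
HDAC9, chr7:19040676-19040705, plus strand: attttggacttgGCAGTTtgttttactaat
SIRT2, chr19:39369699-39369728, minus strand: ccctcttaaccaGCAGTTcttgtctgggga
YWHAG, chr7:75958295-75958324, minus strand: taacactaaattGCAGTTtacagtatttct
YWHAG, chr7:75956433-75956462, minus strand: ctatagtgacatGCAGTTatatattttgtt
YWHAG, chr7:75956181-75956210, minus strand: ggaccatctttaGCAGTTtcctcagtgatg
Of 12337 tested genes whose 3′ UTR has 100 bases or more, 36.2% hold the word on the transcribed strand. The median log2FC was 0.07 for genes with 0 copies, −0.10 with 1, −0.22 with 2 and −0.32 with 3 or more, and the median length of the 3′ UTR went from 886 to 5444 bases over the same classes, so that the word and the length cannot be told apart here. Of the members HDAC9 (log2FC −0.69) holds 2 copies, and HDAC2 (0.21) and SIRT2 (−0.46) hold 1 each. The members with 0 copies are HDAC5 (−0.85), HDAC7 (−0.56), HDAC1 (0.01), HDAC3 (0.14), SIRT6 (0.32), SIRT1 (0.37) and HDAC4 (0.93). Of the other family genes SIRT5 (−0.99) holds 2 copies, HDAC11 (−1.05) and HDAC8 (0.10) hold 1 each, and the rest hold 0. Among the genes of the partner and proliferation lists named by the rule and described above, YWHAG, TBL1XR1, ARID4A and SARM1 hold 3 copies, KAT2B and USP22 2, YWHAB, TBL1X, SIK3, CAMK1D and PCNA 1, and the others 0. Of these holders SARM1 and CAMK1D had a log2FC above 0 and the other genes one below 0. Of the genes with 0 copies ZMYM3 and MCM2 were below 0, and RBBP7, MBD3, SAP30, KAT2A, NAMPT and RPS19BP1 above it. The word came from these same data and these genes were picked by smallest p, so their directions are no test of the word.

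Promoter windows from RefSeq (GRCh38.p14, 250 bases before to 50 after an annotated start) were found for 9 of the 10 members. That of HDAC4, at its most upstream start, is shown since this gene had the largest log2FC of the members, and that of SIRT1 since it is the other member whose window holds the E-box CACGTG, set in capitals. Both are written 5′ to 3′ on the strand of the gene.
HDAC4, chr2:239401600-239401899, minus strand: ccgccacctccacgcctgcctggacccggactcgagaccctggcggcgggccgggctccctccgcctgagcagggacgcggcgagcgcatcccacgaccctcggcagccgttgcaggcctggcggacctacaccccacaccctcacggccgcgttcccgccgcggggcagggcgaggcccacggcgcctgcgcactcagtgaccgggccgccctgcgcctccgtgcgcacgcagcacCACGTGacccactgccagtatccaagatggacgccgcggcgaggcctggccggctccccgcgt
SIRT1, chr10:67884406-67884705, plus strand: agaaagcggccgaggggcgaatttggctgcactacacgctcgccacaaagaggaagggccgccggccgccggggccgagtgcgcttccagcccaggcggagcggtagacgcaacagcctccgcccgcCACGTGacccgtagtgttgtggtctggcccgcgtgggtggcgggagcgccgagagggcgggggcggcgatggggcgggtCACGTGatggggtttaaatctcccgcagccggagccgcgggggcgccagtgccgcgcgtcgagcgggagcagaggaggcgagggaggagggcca
The E-box, whose letters read alike on both strands, occurs once in the HDAC4 window and 2 times in that of SIRT1, and in 7.26% of all 35116 promoter windows. Of the other motifs searched on both strands, in the window at the most upstream start of each member, the GC box GGGCGG was found in windows of 6 members (45.0% of all windows), the CCAAT box CCAAT in 3 (34.6%), the core TGACG of the CRE in 2 (24.6%), and the AP-1 motif TGANTCA in 0 (7.71%). None of these words contains another. These matches describe the letters of the windows, and binding of a factor was not measured in these libraries.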

How the data were processed

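Poly(A) RNA of 4 IMR90 cultures was sequenced paired-end. The authors mapped reads to hg19 with STAR and deposited raw featureCounts read counts of 63677 genes per library, whose versions, strand setting and pair counting are not given in the sources used here. From these, 57736 genes lie on primary chromosomes and 55665 had a symbol. Counts were tested with edgeR 4.0.16 in R 4.3.3 (filterByExpr, TMM, quasi-likelihood test, Benjamini-Hochberg over 15398 genes), and calls took the thresholds of the study's methods, a log2-fold change beyond 0.6 in either direction and an adjusted p under 0.01. All 4 libraries entered the fit, without a term for the isolate. Since replicates of the same number share an isolate, a fit with that number as a block is given beside the results. The isolate differences in control and knockdown libraries correlated with r = 0.46 over 15398 genes (genes are no independent replicates).

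Alternatives were DESeq2 1.42.0, RUVs with 1 factor before DESeq2 (the study's steps, with RUVs written out from its description and the number of factors chosen here), RLE size factors, leaving low counts unfiltered, requiring 10 or more counts in all libraries, other thresholds, and leaving out each library. The scripts were tested on simulated data. Members and lists were chosen with earlier results of these data known. The genes named are HMGB1, the 18 family genes, the 2 tested genes of smallest p in each other list (subunits of NuRD, SIN3, CoREST and NCoR/SMRT with MiDAC, MEF2 and 14-3-3 genes, class IIa kinases, acetyltransferases, NAD enzymes, sirtuin regulators, proliferation genes and the 5 cell type lists), and the most abundant marker of each other cell type. Exceptions are marked as named after their values were seen, apart from LYZ, CD3E, KRT5 and CDH5, which are named because they were at 0 in all libraries. The result of 1 gene that this rule names is not reported here. Gene positions, overlaps and 3′ UTRs come from the GENCODE annotation lifted to hg19.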

Additional observations from a re-analysis of the deposited data

Results flagged for a closer look

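For 5 of the 18 family genes the log2 ratio of knockdown over control had opposite signs in the isolates, and the differences were not tested, since each isolate has 1 library per group. The sign was the same in both isolates for 13 of the 18 and for 12058 of all 15398 genes tested, so that such a pattern is common. The log2 ratio of HDAC9 was −1.27 in I90-10 and 0.0943 in I90-79, a difference (I90-79 minus I90-10) of 1.36, and rested on the 296 counts of control replicate 1. SIRT4, with 32 to 54 counts a library, had 0.198 and −0.516, a difference of −0.715. SIRT3 had 0.123 and −0.165 (difference −0.288), HDAC8 −0.0407 and 0.232 (difference 0.273), and HDAC1 0.092 and −0.0663 (difference −0.158). The last 3 genes had ratios close to 0 in each isolate.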

How the results depend on the processing

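Without the isolate term 10 genes were called higher and 21 lower. With the replicate block, which pairs the libraries of an isolate, the numbers were 1028 and 1207 and took in all 31 of the former, and 2 members were called. DESeq2 gave 728 and 818 with 1 member, RUVs before DESeq2 918 and 1007 with 2 members, no filter on low counts 1118 and 1275 with 2 members, an adjusted p below 0.05 575 and 668, and a filter of 10 counts in every library 6 higher. Leaving out a library gave from 0 to 305 genes higher, from 0 to 337 lower, and from 0 to 2 members, where the lone library of a group was assumed to vary like the other group. The members called were HDAC4 under DESeq2, and HDAC4 and HDAC5 with the block, under RUVs, without a filter and without control replicate 2. The replicate block changed no other member's call. Between the isolates DESeq2 called 450 genes, the fit without a filter 913, and an adjusted p below 0.05 701, against 257, with 0 members in each. Of the 120 values of the members' log2-fold change under an alternative, 2 changed sign, both of HDAC1, which ranged from −0.053 to 0.077 as libraries were left out (−0.006079 without knockdown replicate 1 and −0.053 without control replicate 1), and 9 passed the thresholds that the reported fit missed. Among other genes, SIRT3 went to 0.039 under RUVs, to 0.0041 without a filter, and from −0.26 to 0.21 as libraries were left out (0.086 without control replicate 1), SIRT4 from −0.45 to 0.13, and KRT19 from −2.59 to 1.32 (0.16 without knockdown replicate 2). The calls of HMGB1 and YWHAG were lost when either knockdown library was left out, at log2-fold changes of −3.47 and −3.71 for HMGB1 and of −2.14 and −2.25 for YWHAG. Values that missed the thresholds also moved by over 1.5 times, among them SIRT1 (0.24 to 0.50), HDAC3 (0.064 to 0.22), HDAC8 (0.020 to 0.17), ZMYM3 (−0.67 to −0.29), MBD3 (0.20 to 0.41) and RPS19BP1 (0.17 to 0.39). The cause was not tested. Depth limits the genes of few counts, such as SIRT4 with 32 to 54 counts a library and a standard error of 0.35.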
